A study of Mus musculus with 3 samples.

Results

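The 48 genes described here encode the machinery that copies DNA in S phase: the proteins that mark and load origins, the replicative helicase, the polymerases, the clamp and its loader, the enzymes that supply deoxynucleotides, and factors of chromatin assembly and S-phase control. They were given as a list of gene symbols, and every probe set that the platform annotation gives to 1 of those symbols alone was used. By that rule 45 of the 48 genes had a probe set, 83 probe sets in all, out of 12393 named genes and 22690 probe sets on the array. Gins2, Rnaseh2a and Chaf1a were not analysed here. A further probe set shared by Tyms and a Tyms pseudogene was left out, because it names no single gene.

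The RNA came from C2C12 cells, a mouse myoblast line that divides in serum and can fuse into muscle fibres when serum is withdrawn. The 3 groups were untreated cells, cells transfected with EGFP (enhanced green fluorescent protein, the control for transfection) and cells transfected with DGKzeta (diacylglycerol kinase zeta, an enzyme that phosphorylates diacylglycerol to phosphatidic acid). All cells were grown in medium with fetal calf serum, plated 18 h before the FuGene transfection step, and labelled as 12 h samples. The share of cells that took up DNA, the DGKzeta construct and its promoter, and whether untreated cells saw the reagent are not stated in the labels. Each group had 1 array, so no difference below has a replicate check and no p-value is given. The series title ties arrest of the cell cycle by nuclear DGKzeta to the genes TIS21 and cyclin D1, and genes of S phase bear on whether cells were cycling.

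As background, an origin of replication is bound by the origin recognition complex, onto which CDC6 and CDT1 load the MCM helicase in G1. The helicase is switched on at the start of S phase when CDC45 and the GINS complex join it, after which primase and the polymerases copy both strands behind the unwinding fork. Many of these genes are targets of E2F transcription factors, which the retinoblastoma protein holds back until cyclin-dependent kinases release them, so that their transcripts are usually abundant in cycling cells and scarce in cells that have left the cycle.

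Some promoters of these genes hold a sequence feature that the list of symbols did not use. RefSeq promoter windows (build GRCm38.p6, from 250 bases before to 50 bases after each start) were found for 41 of the 48 genes and searched on both strands for TTTCCCGC, TTTGGCGC, TTTCGCGC and TTTGCCGC, letters of the E2F consensus. At least 1 match, overlapping matches included, was present for 14 of the 41 genes (34.1%), against 2.60% of the 27025 genes of the promoter table, 4.07% of the 9887 that also had a named probe set and 5.33% of the 5309 measured on all 3 arrays. Related lists had like or higher shares: 13 of 38 other replication genes (34.2%) and 7 of 12 genes of E2F and RB control (58.3%), against 3 of 38 genes of G2 and mitosis (7.89%). The genes with a match were Mcm3, Mcm5, Mcm6, Mcm7, Cdc6, Cdt1, Orc1, Orc3, Pola1, Pold1, Pole2, Rfc3, Lig1 and Uhrf1. Stretches that lie wholly before the start are printed for 8 of them, to show where the motif sits in genes of several roles. The capitals mark the matches, and each line reads along the strand of the gene.
Mcm5, chr8:75109326-75109397, plus strand: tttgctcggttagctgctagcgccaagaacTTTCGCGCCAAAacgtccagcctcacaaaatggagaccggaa
Mcm6, chr1:128359715-128359845, minus strand: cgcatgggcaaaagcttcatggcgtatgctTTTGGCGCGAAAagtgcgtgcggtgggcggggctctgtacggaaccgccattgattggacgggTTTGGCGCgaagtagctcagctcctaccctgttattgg
Mcm7, chr5:138172011-138172078, minus strand: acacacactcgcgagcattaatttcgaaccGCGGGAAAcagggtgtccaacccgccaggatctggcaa
Cdc6, chr11:98907983-98908050, plus strand: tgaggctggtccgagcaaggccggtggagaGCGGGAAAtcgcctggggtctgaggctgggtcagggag
Orc1, chr4:108579397-108579453, plus strand: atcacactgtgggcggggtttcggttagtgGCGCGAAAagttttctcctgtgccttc
Pola1, chrX:93632256-93632323, minus strand: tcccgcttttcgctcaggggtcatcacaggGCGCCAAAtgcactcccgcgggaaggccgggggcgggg
Rfc3, chr5:151651209-151651248, minus strand: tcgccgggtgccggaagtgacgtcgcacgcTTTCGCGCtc
Uhrf1, chr17:56304098-56304165, plus strand: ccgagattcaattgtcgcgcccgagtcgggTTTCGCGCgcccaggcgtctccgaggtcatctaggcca

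The match lay 27 bases before the start in Orc1, 10 in Rfc3, 138 in both Cdc6 and Pola1, 165 in Mcm7 and 185 in Uhrf1. In Mcm5 a pair of overlapping matches on opposite strands began 153 and 149 bases before the start, and Mcm6 had 3 matches, the farthest 110 and the nearest 47 bases away. By role, 4 of 5 MCM2 to MCM7 genes with a window and both licensing genes with one held the motif, as did 3 of 6 polymerase and primase genes and 2 of 6 origin recognition genes, but 0 of 2 helicase activation and 0 of 5 nucleotide supply genes. These matches describe letters only, and binding was not measured here.

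Signals are probe set intensities as deposited, made with MAS5 and already scaled per array. A gene is represented by its brightest probe set, and a value under 107, the median of all values pooled, was set to that floor before log2, so that a ratio to a floored value is a bound. By this measure 44 of the 45 genes (97.8%) reached the floor on all 3 arrays, against 51.9% of the 12393 genes. The exception, Tyms (thymidylate synthase), was at 124, 116 and 61.7 in untreated, EGFP and DGKzeta cells, under the floor in the last. The probe set shared with a Tyms pseudogene, left out above, read 933, 821 and 766 in the same order, above the floor on all 3 arrays. Signals of different probe sets are not on 1 scale, so each gene is compared only with itself across the arrays. Because each array is RNA of a whole culture, fewer cells in S phase and less transcript in each such cell cannot be told apart.

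**Figure D1:**
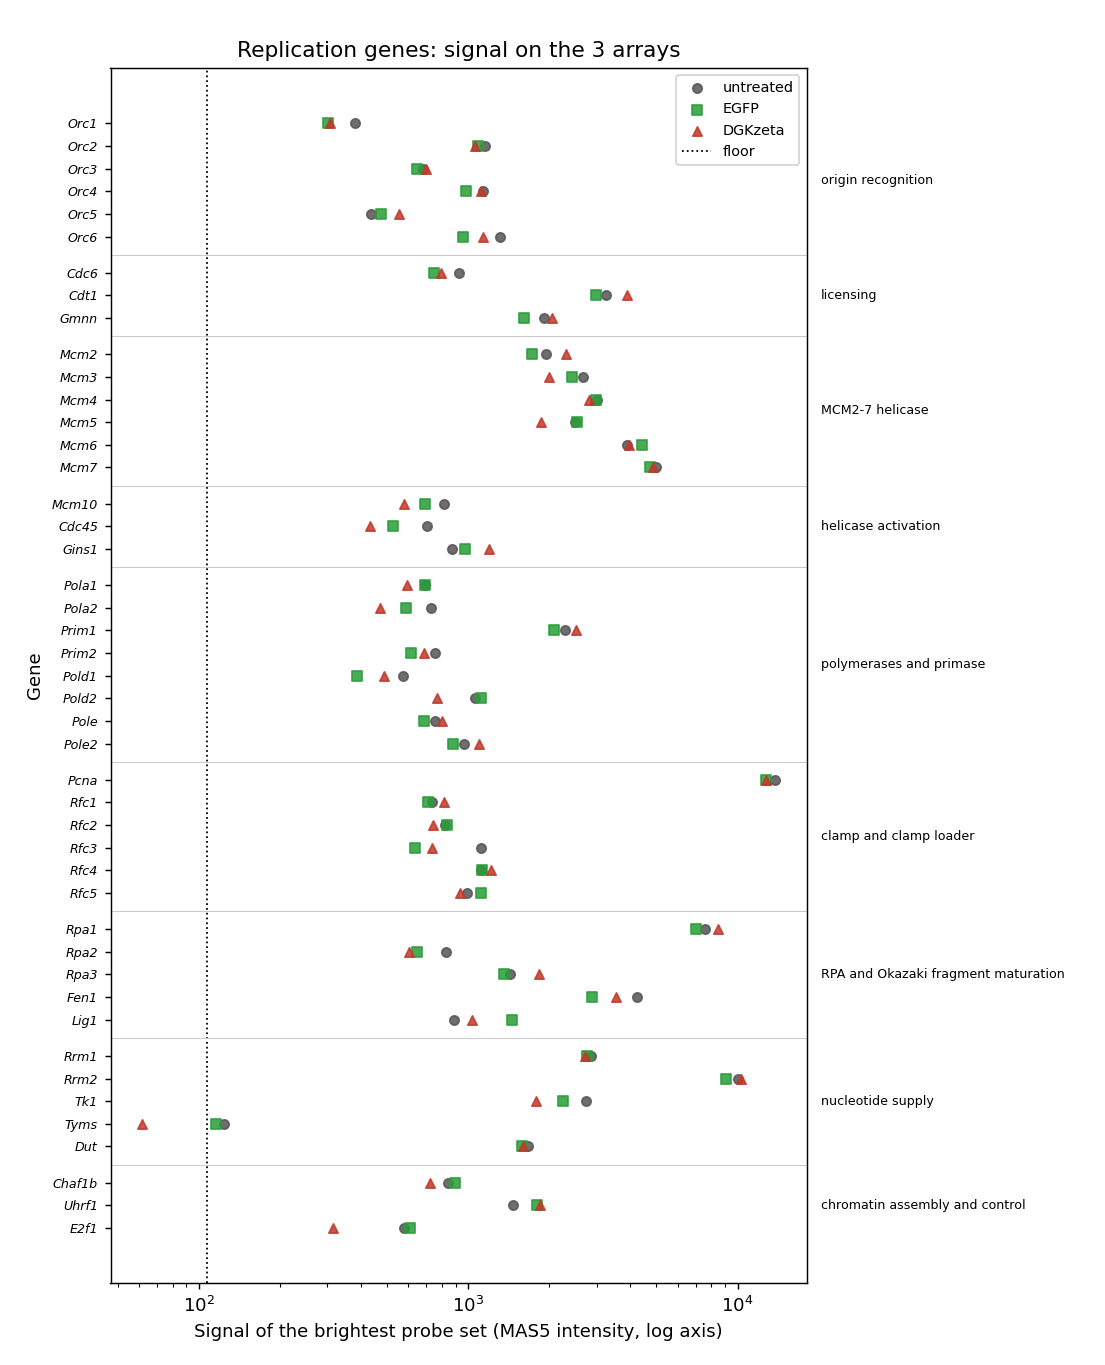
Signal of the brightest probe set of each of the 45 genes (horizontal log axis, MAS5 intensity) in untreated, EGFP and DGKzeta cells, 1 array each, with genes grouped by role and the floor of 107 as a dotted line. The 3 symbols of a gene lie close together for most genes; E2f1, Lig1, Rfc3, Cdc45 and Tyms are among those that spread the most, and levels of different genes are not on 1 scale.

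The arrays differed in ways that touch the whole table. Dgkz itself was 12.8-fold above EGFP and 8.98-fold above untreated cells by its brightest probe set, and 18.0-fold and 23.0-fold by the other, in the direction of the label. The median signal of all probe sets was 111 in untreated, 119 in EGFP and 92.5 in DGKzeta cells. The ratio of the 3' to the 5' control probe set of Actb, which increases when labelled product is shortened, was 1.27, 1.43 and 2.55 in the same order, while that of Gapdh was 0.841, 0.902 and 0.931; the part of either in the values below was not tested. Of 6 myoblast markers 5 reached the floor on every array (summed signal 24284 to 27451), but Myod1, a defining one, was under it at 35.1, 26.5 and 23.7. Of the muscle differentiation markers 2, 2 and 1 of 6 reached the floor in untreated, EGFP and DGKzeta cells (summed 1362 to 1685), with Myog under it throughout. None of 5 epithelial (summed 94.7 to 117) or 4 endothelial markers (31.3 to 78.4) did so, 1 of 4 neural markers did (Tubb3; 224 to 253), and Cd14 and, in untreated cells, Csf1r did among 6 leukocyte markers (562 to 711), of which Ptprc was at 11.4, 0.672 and 3.53.

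Comparison of DGKzeta with EGFP cells asks what accompanies the kinase when both cultures were transfected. None of the 45 replication genes differed by 2-fold or more: the members ran from E2f1, the transcription factor of S-phase entry, at a log2 ratio of -0.96 to Rpa3, a subunit of the single-strand binding protein RPA, at 0.43. Of the 45 genes 26 (57.8%) lay above 0 and 19 (42.2%) below. Of the 6926 genes at or above the floor in either culture 47.4% lay above 0 and 52.6% below. The members' median was 0.03, where that of the 6926 genes was -0.02. Among those 6926 genes 0.347% were 2-fold or more higher and 2.84% 2-fold or more lower. At 1.5-fold the members counted 0 higher and 1 lower (E2f1), against 3.51% and 11.6% of all genes. With equal medians over named probe sets, where the median of all genes was 0.33, 12 of 44 members were 1.5-fold higher. By the second-brightest probe set 3 of 22 were 1.5-fold lower. The share of all genes at 1.5-fold was not counted under these 2 settings. The central 50% of the members lay between -0.23 and 0.22, that of all genes between -0.31 and 0.22.

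This comparison moves with the scale of the arrays, since other scalings shift all genes together. Scaling to equal medians over named probe sets put the median of all genes at 0.33 and that of the members at 0.40, and quantile normalization put them at 0.05 and 0.10. Minus the median of all genes, the members stood at 0.06 as deposited and at 0.05 to 0.07 under the 3 other scalings. Scaling to equal medians, over named or over measured probe sets, raises all ratios of this comparison. A ratio above 0 could therefore turn only with quantile normalization. Under all 4 scalings 23 of 26 members kept a ratio above 0 and 4 of 19 one below 0, the latter being E2f1, Mcm5, Pold2 and Lig1. That split follows the direction of the shifts, and the share of all genes that kept their sign was not counted. Tyms was under the floor in both cultures with quantile normalization and with equal medians over named probe sets, and had no ratio there. For 1 probe set the SD in this log2 ratio was 0.40, from the 2251 genes with at least 2 measured probe sets.

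Set against untreated cells, DGKzeta cells differ by the kinase and by transfection together. Again no member passed 2-fold (Tyms did without a floor, at a log2 ratio of -1.01), where 1.34% of the 6866 measured genes were 2-fold or more higher and 2.80% 2-fold or more lower. At 1.5-fold the members counted 0 higher and 5 lower (11.1%), namely E2f1, Cdc45, Pola2, Tk1 and Rfc3, against 7.09% and 9.93% of all genes. That count of 5 was 2 with quantile normalization, 1 with equal medians over named probe sets (and 4 higher) and 8 without probe sets of suffix x or s. The share of all genes was not counted at 1.5-fold under these settings. Ratios lay above 0 for 17 members (37.8%) and below 0 for 28 (62.2%), beside 48.3% and 51.7% of all genes. The members' median was -0.10 against -0.02 for all genes. The median was 0.17 after scaling to equal named probe set medians, where all genes stood at 0.24, so the sign of the members' median rests on the scale; minus the median of all genes it was -0.08 as deposited and -0.15 to -0.08 under the other scalings.

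The EGFP array also stood below the untreated one for most of these genes, without transfected DGKzeta. In this comparison 32 of 45 members (71.1%) had a log2 ratio below 0, where 46.3% of the 6932 measured genes did, and their median was -0.11 against 0.02. Scaling to equal medians lowers all ratios of this comparison, so that only quantile normalization could turn a ratio below 0, and all 32 kept their sign. The share of all genes that kept theirs was not counted. The members' median minus that of all genes was -0.13 as deposited and -0.13 to -0.12 under the other scalings. The choice of probe set moved it more: for the 22 members with at least 2 measured probe sets the median was -0.11 by the brightest, 3 being above 0, and -0.05 by the second-brightest, 9 being above 0. No member passed 2-fold, against 0.361% of all genes higher and 0.303% lower. At 1.5-fold the counts were 1 higher, Lig1, and 1 lower, Rfc3, beside 4.13% and 1.51%. For 1 probe set the SD was 0.27 here. The lowest ratios after Rfc3 were those of Pold1 at -0.56 and Fen1 at -0.55, both lowest in EGFP cells by the brightest probe set, while their other probe sets gave 0.08 and 0.00089. Both transfected arrays are set against the same untreated array, so that their differences from it are not independent, and 1 high untreated value lowers both ratios.

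**Figure D2:**
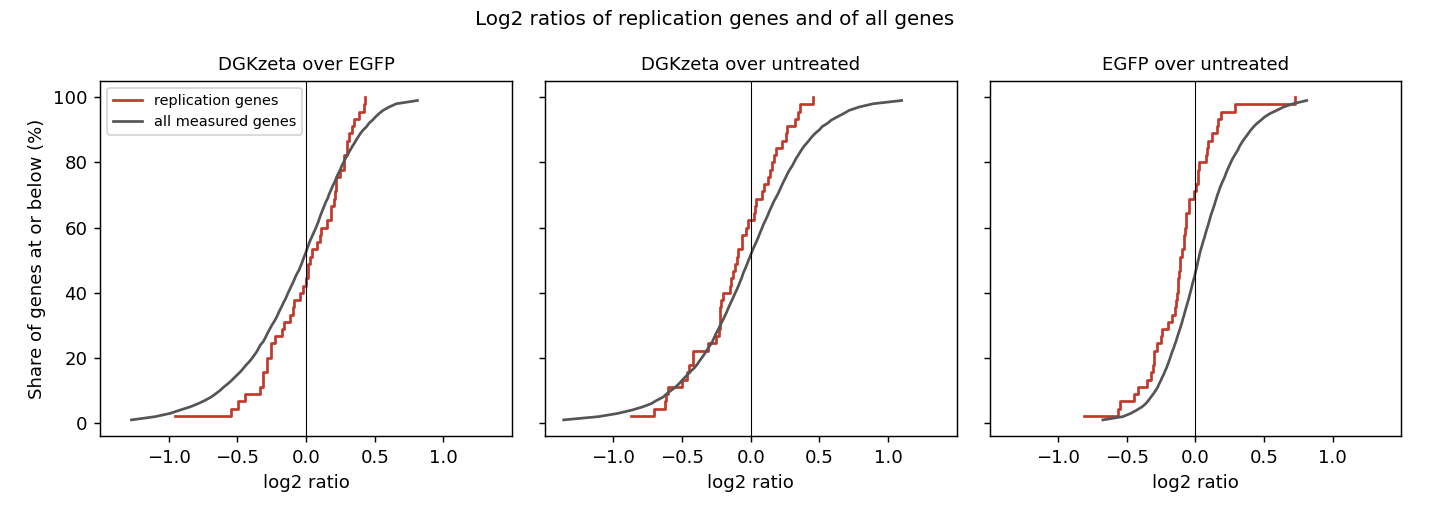
Cumulative share of genes (vertical, percent) at or below each log2 ratio (horizontal) for the 45 replication genes (red steps) and for all measured genes (grey, 1st to 99th percentile), 1 panel per comparison. The curves run close together around 0 for DGKzeta over EGFP, and the red curve is shifted to the left in EGFP over untreated, where the medians were -0.11 and 0.02.

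Origin recognition genes differed little between DGKzeta and EGFP cells. ORC1 to ORC6 form the complex that sits on origins, and 5 of the 6 genes were above EGFP in DGKzeta cells. The median log2 ratio of the 6 was 0.14 as deposited, and 0.14 to 0.17 minus the median of all genes under the 4 scalings. Orc6 was at 1308, 957 and 1136 in untreated, EGFP and DGKzeta cells, a log2 ratio of 0.25 to EGFP, with the EGFP array lowest. Orc1, the subunit most tied to the cell cycle, had 379.7, 303 and 306, high in untreated cells and nearly equal in both transfected cultures. Orc5 was highest in DGKzeta and lowest in untreated cells, at 437, 476 and 555, a log2 ratio of 0.22 to EGFP and 0.34 to untreated. By their brightest probe sets Orc2 had 1157, 1093 and 1060.2, Orc3 682, 649 and 699 and Orc4 1132, 986 and 1118. Other probe sets of these 3 genes spread more widely, with log2 ratios of 0.57 in DGKzeta over untreated cells for Orc3 and, in EGFP over untreated cells, -0.46 for Orc2 and -0.43 for Orc4. None of the brightest probe sets of the 6 genes was more than 0.25 from EGFP in DGKzeta cells, and the group's ratio to untreated, median -0.07, changed sign with equal medians over named (0.19) or over measured probe sets (0.02).

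Licensing genes had 3 of 3 ratios above 0 in DGKzeta over EGFP cells by the brightest probe set, with a median of 0.35 (0.28 to 0.71 under the 4 scalings). Minus the median of all genes it was 0.22 to 0.38. Cdt1, which loads the MCM helicase and is destroyed once S phase begins, was at 3238, 2982 and 3888 by its brightest probe set, highest in DGKzeta cells. Its next probe set had 1705, 1590.5 and 1231, lowest in DGKzeta cells, so that the log2 ratio to EGFP was 0.38 by the former and -0.37 by the latter. Gmnn, which encodes geminin, the inhibitor of CDT1, was at 1913, 1608 and 2047, a log2 ratio of 0.35 to EGFP and 0.10 to untreated. Cdc6, the loader ATPase, had 922, 748 and 790.2 and was highest in untreated cells. Against untreated cells the EGFP array was lower for all 3 genes.

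The MCM2 to MCM7 subunits, which form the ring of the helicase, gave ratios on both sides of 0 in DGKzeta over EGFP cells: 2 of 6 were above, and the median was -0.12. Equal medians over named probe sets put it at 0.24, where all genes stood at 0.33; minus the median of all genes it was below 0 under all 4 scalings, from -0.28 to -0.095. Mcm5 had a single probe set, at 2497, 2531 and 1863 in untreated, EGFP and DGKzeta cells. It was lowest in DGKzeta cells, with a log2 ratio of -0.44 to EGFP and -0.42 to untreated. Mcm3 was lowest in DGKzeta cells by all 4 of its measured probe sets, with 2677, 2434 and 2003 for the brightest and 1128, 973 and 396 for the dimmest of them. Its log2 ratios to EGFP were -0.28, -0.57, -0.62 and -1.30, a direction shared by its probe sets and a size that was not. With equal medians over named probe sets the brightest of them gave 0.08, under the 0.33 of all genes.

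For the other subunits the direction depended on the probe set. Mcm2 was at 1938, 1722 and 2314 by the brighter and 2175, 2092 and 1566 by the other, a log2 ratio to EGFP of 0.43 against -0.42. Mcm7 was at 4989, 4722 and 4869.9 by its brightest, nearly level, and at 2426, 2446 and 1573 by the next, a log2 ratio to EGFP of 0.04 and -0.64; its last measured probe sets gave -0.37 and 0.24. Mcm4 had 3001, 2980.2 and 2805 and 1620.3, 1743 and 2361, the DGKzeta array being lowest by the first and highest by the second. Mcm6 had 3891, 4433 and 3963 and 1366, 1607 and 2289, with log2 ratios to EGFP of -0.16 and 0.51. No ranking of the 6 subunits can be read from these ratios.

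Genes that switch the helicase on differed among themselves. Cdc45, a component of the active helicase, was at 704, 527 and 432 in untreated, EGFP and DGKzeta cells, lowest with the kinase and intermediate with EGFP. Its log2 ratio in DGKzeta cells was -0.29 to EGFP and -0.70 to untreated. Mcm10, which helps the helicase to start, followed the same order at 816, 689 and 577, with -0.26 and -0.50. Gins1, a GINS subunit that rides with CDC45, had the opposite order at 872, 973 and 1196, with 0.30 and 0.46. The median of these 3 genes to untreated cells, -0.50, stayed below 0 under all 4 scalings (-0.24 at the nearest), while that to EGFP, -0.26, became 0.11 with equal medians over named probe sets. Minus the median of all genes the latter was -0.23 to -0.20 under all 4. Each of the 3 rests on 1 measured probe set.

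Polymerase and primase genes had a median log2 ratio of 0.19 in DGKzeta over EGFP cells, and of 0.17 to 0.22 minus the median of all genes under the 4 scalings. The sign of that median rests on the brighter probe set of Pold1, as the other gave -1.07. Over untreated cells the median was -0.18, which became 0.08 with equal medians over named probe sets but stayed at -0.17 to -0.15 minus the median of all genes. Pola2, the regulatory subunit of polymerase alpha, was at 729.9, 588 and 473, highest in untreated and lowest in DGKzeta cells, a log2 ratio of -0.63 to untreated. Pola1, the catalytic subunit, had 693, 694 and 593, alike in both controls and lower with the kinase at -0.23 to EGFP. Both primase genes, which make the RNA primers, lay above EGFP by each probe set: Prim1 had 2282, 2083 and 2519 by its brighter, and Prim2 757, 614 and 684 by its brighter and 619, 579 and 857 by its other.

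For polymerase delta, which copies the lagging strand, the direction again depended on the probe set. Pold1, its catalytic subunit, was at 572, 387 and 487 by the brighter probe set, lowest in EGFP cells, and at 508, 538 and 257 by the other, lowest in DGKzeta cells, so that the log2 ratio to EGFP was 0.33 or -1.07. Pold2, the subunit that joins polymerase delta together, had 1 probe set at 1062, 1121 and 769 and was lowest in DGKzeta cells, -0.54 to EGFP. Polymerase epsilon copies the leading strand, and its genes among the members, Pole and Pole2, were slightly above both controls. Pole was at 755, 686 and 798 and Pole2 at 963, 882 and 1095. Their log2 ratios were 0.22 and 0.31 to EGFP and 0.08 and 0.18 to untreated. These lay within the SD for 1 probe set, 0.40 to EGFP and 0.50 to untreated.

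Pcna, the ring that holds polymerases on DNA, differed little between the arrays, at 13774, 12737 and 12746 in untreated, EGFP and DGKzeta cells, a log2 ratio of -0.11 in DGKzeta over untreated cells and of 0.0010 over EGFP. Replication factor C opens that ring, and the ratios of its 5 subunit genes to EGFP ran from -0.26 for Rfc5 to 0.21 for Rfc3. Rfc3 stood out in untreated cells: its brighter probe set read 1116, 635 and 733, high in untreated and lower in both transfected cultures, a log2 ratio of -0.81 in EGFP over untreated cells. Its other probe set, 726, 685 and 691, gave -0.08. Rfc1, the large subunit, was at 732, 708 and 817 and 441, 366 and 297 by probe sets measured on all 3 arrays, with log2 ratios to EGFP of 0.21 and -0.30. A further Rfc1 probe set read 257, 79.8 and 23.9, above the floor in untreated cells alone, and was at least 2.40-fold lower in both transfected cultures. Rfc2 had 819, 834 and 738, Rfc4 1114, 1131 and 1214 and Rfc5 995, 1113 and 932, each within 0.26 of EGFP in DGKzeta cells by the brightest probe set; the other one of Rfc4 gave 0.46.

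RPA coats the single strands at the fork, and its 3 genes did not share a direction in DGKzeta cells. Rpa3 was at 1425, 1359.9 and 1828, highest with the kinase, 0.43 to EGFP and 0.36 to untreated, by its single probe set. Rpa2 was at 825, 646 and 605 and 694, 570.5 and 408, lowest with the kinase by both, with -0.45 and -0.77 to untreated. Rpa1 had 7541, 6989 and 8484 and 3431, 3326 and 2905, highest with the kinase by the first and lowest by the second. Fen1, the nuclease that trims Okazaki fragments, was at 4222, 2886 and 3544 by its brighter probe set, lowest in EGFP cells, and at 1243, 1243 and 1066 by the other, equal in both controls. Lig1, the ligase that seals those fragments, was at 886, 1461 and 1037: it was high in EGFP cells alone, 0.72 over untreated, and DGKzeta cells stood between, -0.50 to EGFP and 0.23 to untreated. As a group these 5 genes had a median of 0.28 over EGFP by the brightest probe set, and of 0.14 to 0.31 minus the median of all genes under the 4 scalings. The second-brightest probe sets of Rpa1, Rpa2 and Fen1 gave -0.20, -0.48 and -0.22, so the sign of that median rests on the choice of probe set.

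Genes that supply deoxynucleotides had 5 of 5 ratios below 0 in EGFP over untreated cells by the brightest probe set, while the second-brightest of Rrm2 gave 0.20. The group's median there was -0.10, and -0.15 to -0.10 minus the median of all genes under the 4 scalings. Tk1, thymidine kinase, whose transcript is a widely used mark of S phase, was at 2745, 2256 and 1785, highest in untreated and lowest in DGKzeta cells. Its log2 ratio was -0.28 for EGFP over untreated, -0.62 for DGKzeta over untreated and -0.34 for DGKzeta over EGFP, the last becoming 0.03 with equal medians over named probe sets. Rrm2, the small subunit of ribonucleotide reductase made in S phase, was at 10048, 9071 and 10269 by its brightest probe set, nearly level, and its others gave -0.25 and -0.34 to EGFP where the brightest gave 0.18. Rrm1, the large subunit, was at 2851, 2759 and 2723 by the brighter and 3331, 2922 and 1879 by the other, a log2 ratio to EGFP of -0.02 against -0.64. Dut, which removes dUTP, differed little at 1673, 1580.4 and 1599.5. Over EGFP the group's median in DGKzeta cells was -0.02, or 0.36 with equal medians over named probe sets.

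E2f1 had the lowest ratio of the 45 genes to EGFP, and the lowest to untreated cells where values are floored (Tyms was lower without a floor), by 1 of its 2 probe sets. That brighter probe set read 576, 611 and 315 in untreated, EGFP and DGKzeta cells, alike in both controls and low with the kinase, 1.94-fold below EGFP and 1.83-fold below untreated. The other read 213, 214 and 211, level on all 3 arrays, with log2 ratios of -0.02 to both EGFP and untreated. Uhrf1, which carries DNA methylation through replication, was at 1473, 1803 and 1844 by its brighter probe set, higher in both transfected cultures. Its other probe set read 309.9, 276 and 91.5, under the floor in DGKzeta cells and at least 2.58-fold lower there than in EGFP cells. Chaf1b, a subunit of the chromatin assembly factor that loads histones behind the fork, was at 845, 898 and 722, -0.31 to EGFP, or 0.05 with equal medians over named probe sets.

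**Figure D3:**
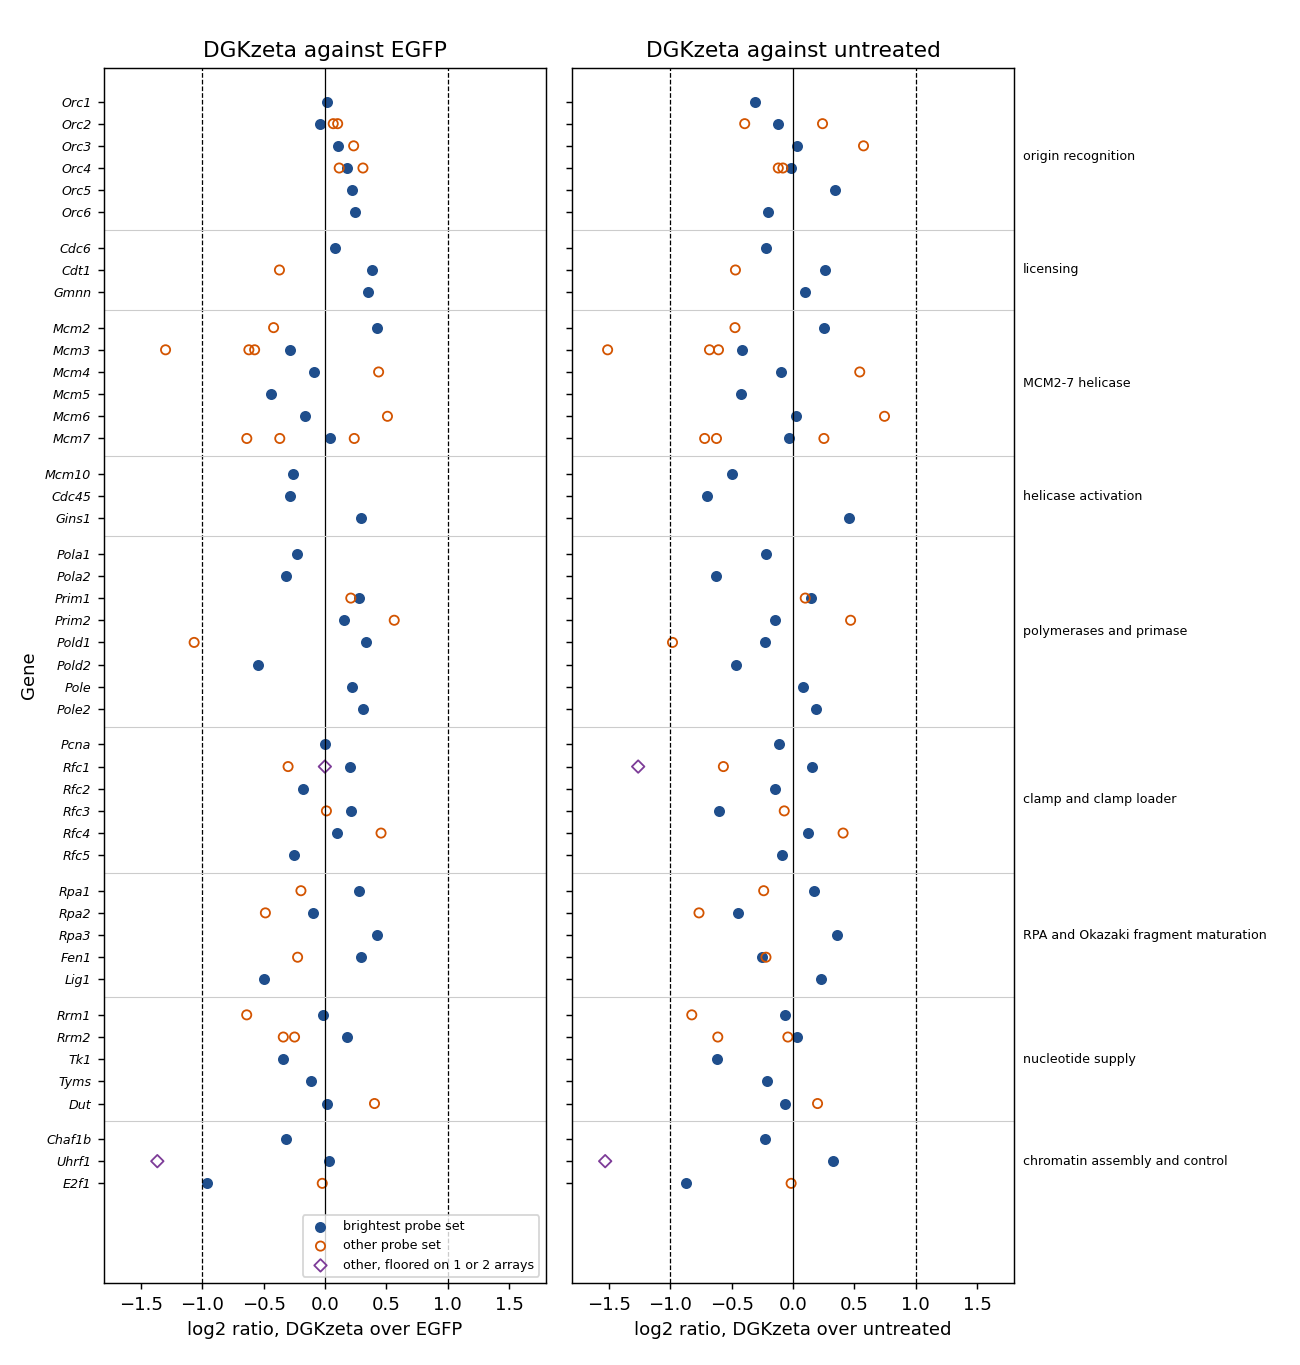
Log2 ratio (horizontal) of DGKzeta over EGFP (left) and over untreated (right) for each of the 45 genes, by the brightest probe set (filled), other probe sets at or above the floor on all 3 arrays (open circles) and probe sets floored on 1 or 2 arrays (diamonds), with dashed lines at 2-fold. No filled point passes a dashed line; open symbols of Mcm3, Pold1, Uhrf1 and Rfc1 do in at least 1 panel, and in 11 of 22 genes the brightest and second-brightest probe sets fall on opposite sides of 0 in the left panel.

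Over all probe sets rather than the brightest, the members' share past 2-fold was close to that of the table. In DGKzeta over EGFP cells 3 of 75 measured member probe sets were at least 2-fold lower, 1 each of Mcm3, Pold1 and Uhrf1, and 0 higher, against 4.31% lower and 0.467% higher among 11788 probe sets. Over untreated cells 3 of 76 were lower, 1 each of Mcm3, Rfc1 and Uhrf1, and 0 higher, beside 5.21% and 1.88%. For EGFP over untreated the member counts were 1 lower (Rfc1) and 0 higher, beside 0.808% and 0.488%.

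By the spread of log2 ratios, probe sets of the same gene disagreed more on the DGKzeta array than between the controls. For the 22 members with at least 2 probe sets measured on all 3 arrays, the probe sets of a gene scattered in log2 ratio with an SD of 0.40 for DGKzeta over EGFP, 0.39 for DGKzeta over untreated and 0.19 for EGFP over untreated, beside 0.40, 0.50 and 0.27 for the 2251 genes of the table. In DGKzeta over EGFP cells the brightest and second-brightest probe sets had opposite signs in 11 of the 22 (42.0% in the table). The count was 9 for DGKzeta over untreated (43.9%) and 8 for EGFP over untreated (41.6%). By sign, the disagreement in the table was thus alike in all 3 comparisons. The median of these 22 in DGKzeta over EGFP cells was 0.13 by the brightest and -0.11 by the second-brightest. For 4 members, Mcm3, E2f1, Rpa2 and Rrm1, every measured probe set was below EGFP, and for 7, Orc3, Orc4, Prim1, Prim2, Rfc3, Rfc4 and Dut, every one was above. Some of these ratios lay near 0 beside the SD of 0.40: 1 each of E2f1 and Rrm1 was -0.02, of Rfc3 0.013 and of Dut 0.017. The like share of the table was not counted. The ratio of the Actb control probe sets given above was also farthest from the others on the DGKzeta array; its part in this disagreement was not tested.

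**Figure D4:**
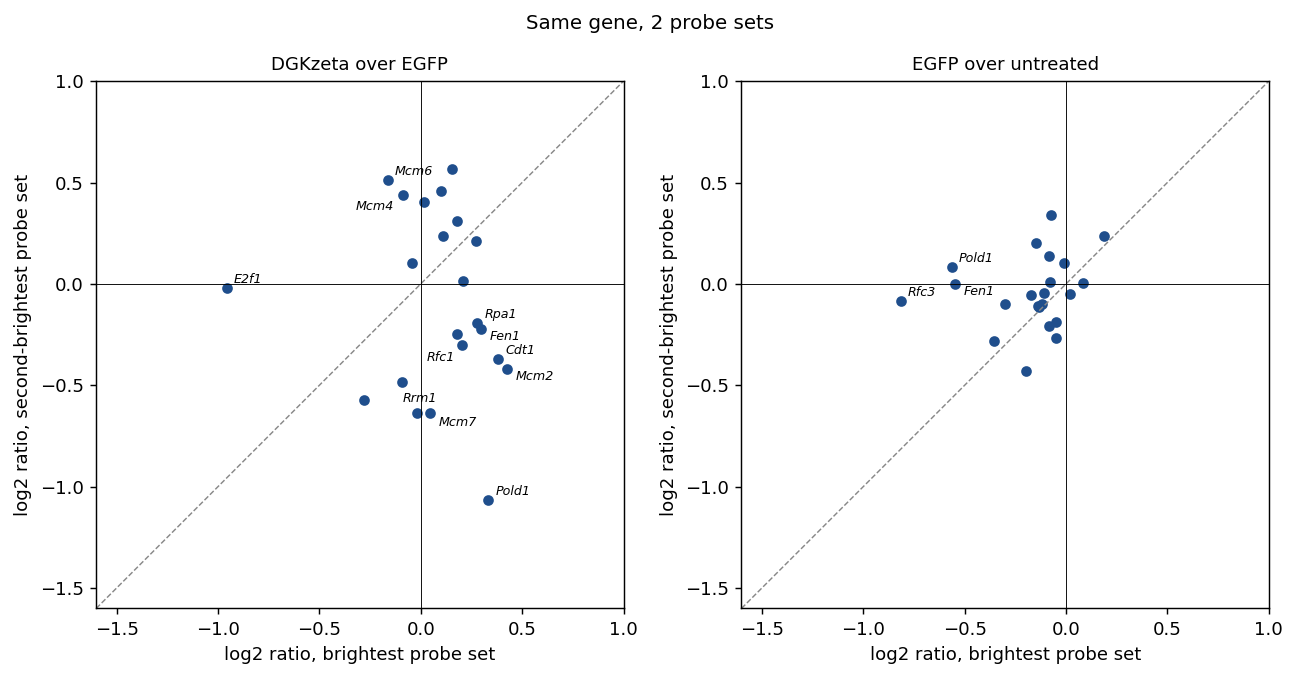
Log2 ratio by the brightest (horizontal) and second-brightest probe set (vertical) of the 22 members with at least 2 probe sets measured on all 3 arrays, for DGKzeta over EGFP (left) and EGFP over untreated (right), with the line of equality dashed and genes over 0.45 from it in second minus brightest named. Points scatter more widely on the left, where the single probe set SD was 0.40, than on the right, where it was 0.19.

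Other replication genes, from a list with none of the 48 in it, gave ratios of like size. Of the 51 listed 38 had a probe set and 37 were measured. In DGKzeta over EGFP cells 23 were above 0 and 14 below, with a median of 0.08, or minus the median of all genes 0.10 as deposited and -0.0045 with quantile normalization; 0 were at least 2-fold higher and 1 lower, and at 1.5-fold 3 were higher and 1 lower. The lower one was Chtf18, a subunit of an alternative clamp loader, at 252, 353 and 157 in untreated, EGFP and DGKzeta cells, high with EGFP and low with the kinase, a log2 ratio of -1.17 to EGFP. Dtymk, which makes dTDP, was at 1576, 1218 and 2029.6, a log2 ratio of 0.74, and its other probe sets gave 0.51 and 0.05. Wdhd1, a fork protein that ties polymerase alpha to the helicase, had 507, 462 and 724, and Rif1, which times origin firing, 529, 499.8 and 758, log2 ratios of 0.65 and 0.60. In EGFP over untreated cells 22 of the 37 were below 0, median -0.07, the lowest being Topbp1, which helps to activate the helicase, at 2168, 1417 and 1491.

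Regulators of S phase and genes of mitosis were set beside the replication genes. Among 14 genes of E2F and RB control with a probe set, of which 13 were measured over EGFP, the median in DGKzeta cells was -0.0045 over EGFP and -0.04 over untreated as deposited. After scaling to equal medians of measured probe sets it was 0.09 and 0.05. In EGFP over untreated cells it was -0.06, and -0.08 to -0.06 minus the median of all genes under the 4 scalings. In DGKzeta over EGFP cells Rb1, which encodes the retinoblastoma protein, was at 467, 527 and 769.8, 0.55, and E2f4 at 164, 253 and 133, -0.93. Ccne1, cyclin E1, was at 539.5, 479.7 and 344, lowest with the kinase. Of 41 G2 and mitosis genes with a probe set 29 (70.7%) were below 0 in EGFP over untreated cells, a median of -0.10, beside 71.1% of the replication genes. Minus the median of all genes, the G2 and mitosis median was -0.12 to -0.09 under the 4 scalings, and that of the replication genes -0.13 to -0.12. In DGKzeta over EGFP cells that list had a median of 0.08, or minus the median of all genes 0.11 as deposited and -0.033 with quantile normalization, 24 of 40 measured genes being above 0, with Nuf2, a kinetochore protein, at -0.82 and Spc25, its partner in the same complex, at 0.61.

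Members with and without the E2F letters in their promoter window had overlapping ratios. In DGKzeta over EGFP cells the 14 with a match had a median of 0.04 (from Lig1 at -0.50 to Cdt1 at 0.38) and the 25 measured ones without a match 0.0010 (from E2f1 at -0.96 to Rpa3 at 0.43). Over untreated cells the medians were -0.13 and -0.11, and in EGFP over untreated cells -0.10 and -0.11. Above 0 in DGKzeta over EGFP cells were 9 of the 14 and 13 of the 25. The difference was not tested.

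**Figure D5:**
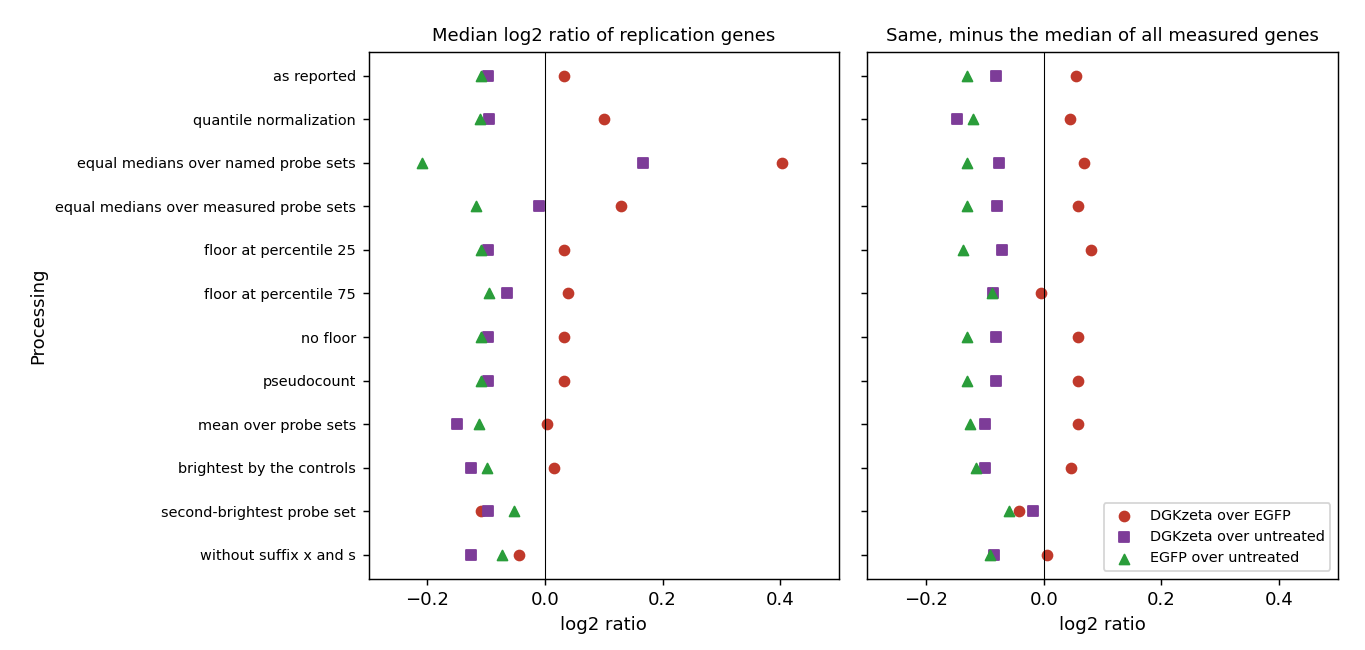
Median log2 ratio of the replication genes (left) and the same minus the median of all measured genes (right) under each processing (vertical), for the 3 comparisons. On the left the values of both DGKzeta comparisons move with the scaling, up to 0.40 and 0.17; on the right EGFP over untreated stays between -0.14 and -0.06 and DGKzeta over EGFP between -0.04 and 0.08.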

How the data were processed

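Biotin-labelled RNA of 3 C2C12 cultures was measured on 1 array each. Per the submitters' processing notes, the authors used MAS5 to make the deposited linear probe set intensities; no version, scaling target or detection call is given in the sources used here. The mean between the 2nd and 98th percentile was between 499.949 and 499.951 on every array, so no further scaling was applied. Of 22690 probe sets 64 are controls, 20380 have 1 symbol, 691 several and 1555 none. Of the named ones 20351 were found by gene ID in RefSeq (GRCm38.p6), and 0 symbols differed. The brightest probe set is that of highest mean log2 value. Floor, folds of 2, 1.5 and 3, scalings and probe set choices were varied as described in the closing section. With 1 array per group no test was run, and the number of arrays limits the precision. Genes named are the members, up to 4 genes of each other list with the largest ratios in a comparison, Dgkz and the controls; not all are printed. The members and lists were chosen with earlier results of these data known. The counting was tested on simulated data. Python 3.11.15, numpy 2.4.6, pandas 2.3.3 and matplotlib 3.10.9 were used.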

Additional observations from a re-analysis of the deposited data

How the results depend on the processing

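No paired analysis was possible because each group had 1 array and the labels give no replicate numbers. The median log2 ratio of the members in DGKzeta over EGFP cells was 0.10 after quantile normalization, 0.40 with equal medians over named probe sets, 0.13 with equal medians over measured probe sets, -0.11 by the second-brightest probe set and -0.043 without probe sets of suffix x or s. In DGKzeta over untreated cells it was 0.17 and -0.0099 when named or measured probe sets were given equal medians, and in EGFP over untreated cells -0.21 with the former. Minus the median of all genes, EGFP over untreated cells gave -0.088 with the floor at the 75th percentile and -0.058 by the second-brightest probe set, and DGKzeta over EGFP cells -0.043 by the latter. Members at least 2-fold lower numbered 1 (Tyms) in DGKzeta over untreated cells with the floor at the 25th percentile or no floor. The shares of all genes there were 5.09% and 3.71%. For DGKzeta over EGFP 1 (Pold1) was lower by the second-brightest probe set, the brightest in the controls or without suffix x and s. All genes at least 2-fold lower were 5.82%, 3.29% and 3.40% in that order. At 1.5-fold the counts were 1 lower in DGKzeta over EGFP cells (0 to 3 over the settings, and 12 higher with equal medians over named probe sets), 5 lower in DGKzeta over untreated cells (1 to 8), and 1 higher and 1 lower in EGFP over untreated cells (0 to 3 lower). The share of all genes past 1.5-fold was not counted under the other settings. Of 1403 ratios of single members under other settings 1336 moved by less than the SD of a single probe set, but many settings can hardly move a ratio: the second-brightest probe set moved 13, 12 and 5 of 22 members by more in the 3 comparisons (DGKzeta over EGFP, DGKzeta over untreated, EGFP over untreated). The causes of these shifts were not tested. Probe sets near the floor, such as those of Tyms, limit what can be read, and 1 array per group leaves the spread between cultures unmeasured.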

Other observations

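Member probe sets of suffix x, which marks probes that may also match other transcripts, were looked at after their values were seen. The 7 measured ones had a median log2 ratio of 0.30 in DGKzeta over EGFP cells, 6 of them above 0, where all 877 such probe sets on the array had 0.11 with 62.8% above 0. Over untreated cells they had 0.03 against 0.19 for the 877, and in EGFP over untreated cells 0.011 against 0.07. Of the other member probe sets in DGKzeta over EGFP cells, the 47 with a plain name had -0.04, the 14 of suffix a 0.05 and the 5 of suffix s 0.04.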
